A study of Homo sapiens with 12 samples.

Results

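A2058 is an established human melanoma cell line that carries an activating BRAF mutation. Cells were treated for 24 h with 100 nM dabrafenib, a RAF kinase inhibitor, together with 10 nM trametinib, a MEK inhibitor (group DT), or with the solvent alone (group DMSO). The comparison rests on the 3 DT arrays against the 3 DMSO arrays, 6 of the 12 Affymetrix arrays of the series, and the members were taken from the treatment labels. The other 6 arrays were of cells given 1 µM entinostat, a class I histone deacetylase inhibitor, alone (E) or with both kinase inhibitors at the same doses (DTE). They were used to share 1 estimate of the spread and for 1 comparison at the end. They also entered the quantile normalization and the choice of probe set for genes with several. Whether the 3 arrays of a group came from separate cultures is unclear, because the titles say biological replicates and the design text says technical triplicates. The p-values therefore rest on differences among arrays that may be technical. All cells were of 1 line, and RNA was taken at 1 time.

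In melanoma with an activating BRAF mutation, RAF phosphorylates MEK, MEK phosphorylates ERK, and ERK drives transcription factors of the ETS and AP-1 families without a growth factor signal. ERK also induces its own brakes, among them the dual-specificity phosphatases and the Sprouty proteins, so the transcripts of these genes are widely read as a gauge of ERK activity. Pigment-cell identity in the same cells is set by SOX10 and MITF, whose activity is known to be restrained by strong ERK signalling.

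Values are log2 intensities, and a change is the mean of the DT arrays minus the mean of the DMSO arrays, with the standard error (SE) and Benjamini-Hochberg adjusted p of limma over 14580 genes. The array medians averaged 4.68 ± 0.111 (SD, n = 3) in DMSO and 4.48 ± 0.106 in DT, a difference of -0.20 that a two-sided exact permutation test put at p = 0.2 (the smallest p it allows is 0.1). Over all genes the median change was -0.17 as deposited and 0.00 after quantile normalization, and the median-centred values gave 0.04. A gene is said to have risen or fallen below if its adjusted p was under 0.05 in that direction on all 3 scales (as deposited, quantile-normalized and median-centred). The dim level of a group is the 95th percentile of 103 keratin-associated, late cornified envelope and olfactory receptor genes (5.34 in DMSO and 5.07 in DT), and levels under it may be background. Arrays of 1 group correlated at 0.993 to 0.995 over genes and arrays of different groups at 0.978 to 0.981. Of the melanocyte markers, 8 were measured and each lay above the dim level in at least 1 group, and of the 12 markers of fibroblasts, epithelium, endothelium and blood that were measured, only LUM (7.20 in DMSO, 7.49 in DT) and KRT18 did.

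Genes called on all 3 scales fell more often than they rose, and further as deposited, but the balance of counts depended on the scale. On all 3 scales 1083 genes (7.43%) fell and 470 (3.22%) rose, and with a change of at least 2-fold as deposited these were 388 (2.66%) and 75 (0.514%). At 4-fold or more 62 genes fell and 8 rose, and at 8-fold or more 14 fell and 1 rose. Of the 15 named genes with the largest falls 12 had a DT mean under the dim level, and of the 15 with the largest rises 11 had a DMSO mean under it. The sizes and the order of those changes were thus measured against levels that may be background. The share of falls depended on the scale, since as deposited 3514 genes (24.1%) were called lower and 471 (3.23%) higher, against 1146 (7.86%) and 1247 (8.55%) after quantile normalization. With a change of at least 2-fold, 390 were called lower and 75 higher as deposited, against 187 and 150 after quantile normalization. No gene was called in opposite directions on those scales. A rise on all 3 scales required a call on the deposited scale, so the 470 rises could not exceed its 471. The 3 DT arrays lay entirely below the 3 DMSO arrays for 5024 genes (34.5%) and entirely above for 799 (5.48%).

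**Figure D1:**
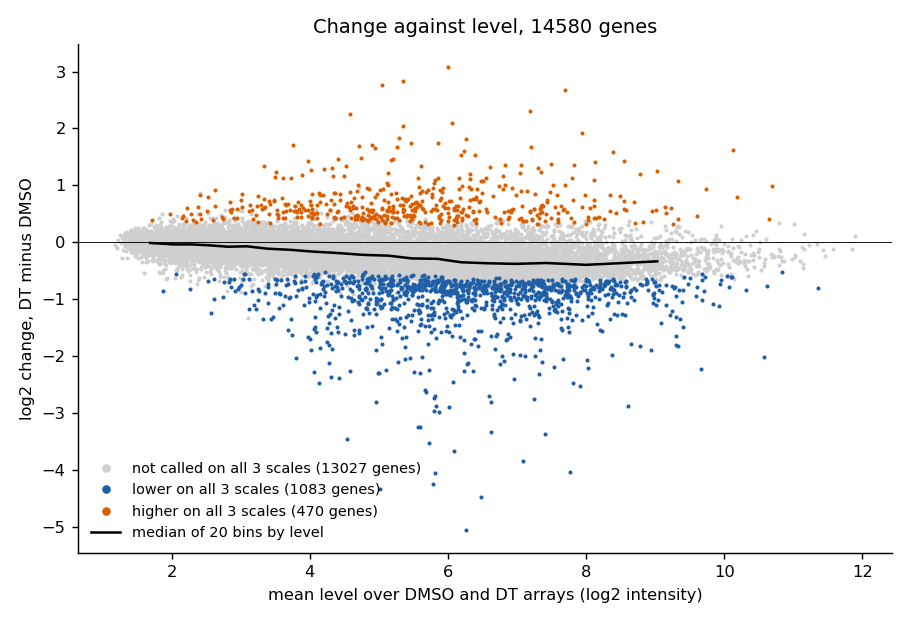
Change between DT and DMSO (log2, vertical axis) against the mean level over the 6 arrays (log2 intensity, horizontal axis) for 14580 genes, as deposited. Blue points are the 1083 genes that fell and orange points the 470 that rose on all 3 scales, and the black line is the median of 20 bins by level. The line runs below 0 for all but the dimmest genes, and the largest falls reach further from it than the largest rises.

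The feedback genes of the ERK pathway held some of the deepest falls. DUSP6, a cytoplasmic phosphatase that inactivates ERK, read 8.64, 8.96 and 8.56 in the DMSO arrays and 4.05, 4.24 and 4.45 in the DT arrays, a change of -4.47 ± 0.19 (SE, adjusted p = 9.66e-12). DUSP4, a nuclear phosphatase of the same family, went from 8.0, 8.07 and 7.66 to 4.20, 4.35 and 4.21, and its change was -3.66 ± 0.14 (SE, adjusted p = 2.58e-12). In both genes every DT array lay more than 3 log2 units below every DMSO array, and the DT levels lay under the dim level, against which DUSP6 was at least 12.6-fold lower. SPRY2, a Sprouty inhibitor of receptor signalling to RAS, read 7.82, 7.95 and 7.96 in DMSO and 3.50, 3.82 and 3.68 in DT (-4.24 ± 0.115 (SE, adjusted p = 2.2e-14)). SPRY4, its relative, read 7.25, 7.52 and 6.88 and 3.88, 4.28 and 3.76 (-3.24 ± 0.169 (SE, adjusted p = 1.23e-10)). The DT means of SPRY2 and SPRY4 also lay under the dim level, against which they were at least 7.17-fold and 4.43-fold lower. Of the 15 measured genes of the MAP kinase phosphatase and Sprouty list, 8 fell and 2 rose, against 7.43% and 3.22% of all genes. The median change was -0.80 (-0.43 after quantile normalization). The rises were DUSP22 (0.94 ± 0.125, adjusted p = 2.3e-05) and DUSP16 (0.72 ± 0.143, adjusted p = 0.00101), phosphatases linked to JNK and p38 signalling.

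Several transcription factors downstream of ERK fell. The PEA3-type ETS factor ETV4 read 7.73, 7.96 and 7.84 in DMSO and 3.90, 3.75 and 3.73 in DT, a change of -4.05 ± 0.137 (SE, adjusted p = 4.17e-13). ETV5 changed by -3.44 ± 0.171 (adjusted p = 8.1e-11) and ETV1 by -2.95 ± 0.144 (adjusted p = 6.3e-11), so that all 3 members of this ETS subfamily fell. FOSL1, which encodes the AP-1 subunit FRA1, was bright in DMSO at 9.85, 9.77 and 9.73 and stood at 5.72, 5.79 and 5.72 in DT (-4.04 ± 0.118 (SE, adjusted p = 5.65e-14)). Its DT level remained above the dim level, unlike those of ETV1, ETV4 and ETV5. EGR1, an immediate-early zinc finger factor, changed by -1.07 ± 0.154 (adjusted p = 5.6e-05) and MYC by -1.67 ± 0.113 (adjusted p = 4.51e-09). ETS1, the founder of the ETS family, rose by 0.62 (SE 0.124, adjusted p = 0.00106). Over the 28 measured ETS, AP-1 and early-response genes 11 fell and 1 rose, against 7.43% and 3.22% of all genes. The median change was -0.53 (-0.18 after quantile normalization).

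Few genes of the cascade itself were called on all 3 scales, and MAP2K1 and MAP2K3 fell. MAP2K1, which encodes MEK1, fell from 7.90 ± 0.0872 (SD, n = 3) to 6.94 ± 0.112 (-0.96 ± 0.118 (SE, adjusted p = 8.74e-06)). MAP2K2, which encodes MEK2, changed by -0.07 ± 0.217 (adjusted p = 0.852), with overlapping arrays. MAPK3, which encodes ERK1, changed by 0.19 ± 0.124 as deposited (adjusted p = 0.297) and was called higher after quantile normalization (0.54, adjusted p = 0.00356). ARAF was called lower as deposited (-0.35 ± 0.123, adjusted p = 0.0414) and stood at 0.02 after quantile normalization (adjusted p = 0.949). RASA2, a GTPase-activating protein that turns RAS off, fell by 1.19 (adjusted p = 0.000111), and MAP2K3, a kinase upstream of p38, changed by -0.87 (adjusted p = 1.3e-05). Of 29 measured RAS and MAP kinase components 3 fell and 2 rose, counts near the shares of all genes called, and the list's median turned from -0.30 as deposited to 0.04 after quantile normalization. The count of rises was 1 without DMSO replicate 1 or without DT replicate 1.

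**Figure D2:**
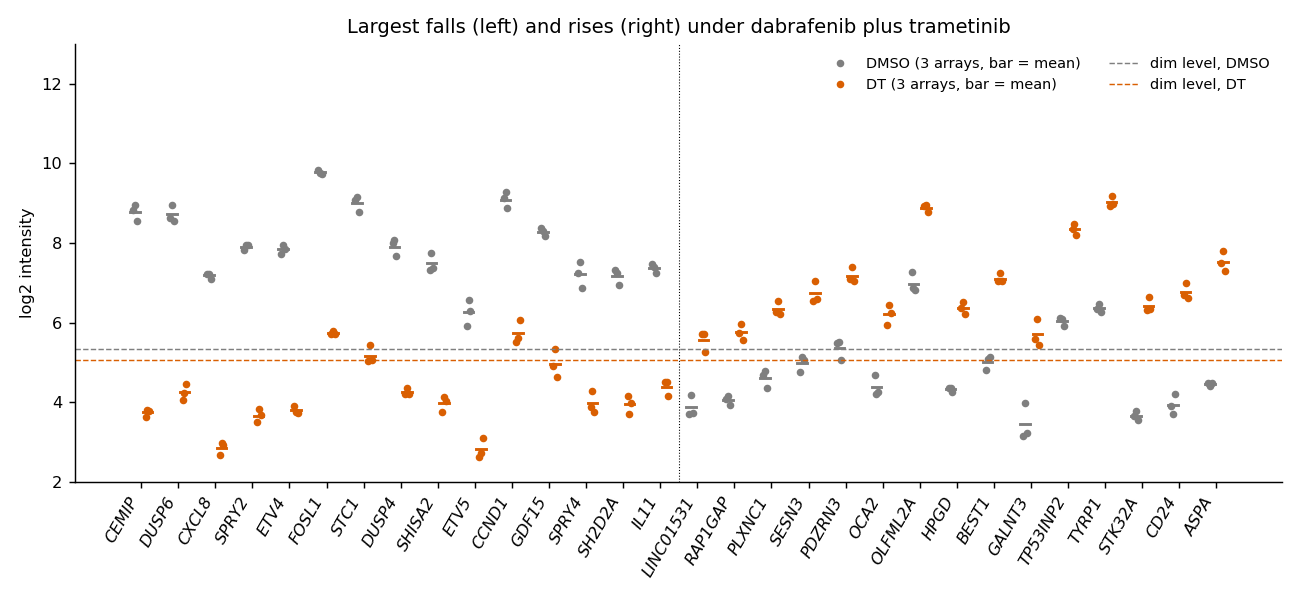
Level of the 15 genes with the largest falls and the 15 with the largest rises in each DMSO array (grey) and DT array (orange), as log2 intensity on the vertical axis; bars are means of 3 arrays and dashed lines the dim level of each group. For all 30 genes the arrays of the groups do not overlap, which the rule that chose them required.

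Several secreted factors fell. CXCL8, the neutrophil chemokine interleukin 8, read 7.23, 7.22 and 7.11 in DMSO and 2.69, 2.97 and 2.91 in DT, a change of -4.33 ± 0.131 (SE, adjusted p = 7.32e-14). IL11, a cytokine of the interleukin 6 family, read 7.47, 7.39 and 7.25 and 4.50, 4.50 and 4.16 (-2.98 ± 0.139 (SE, adjusted p = 3.7e-11)). LIF, of the same family, changed by -2.38 ± 0.172 (adjusted p = 1.11e-08). The DT means of CXCL8 and IL11 lay under the dim level, against which they were at least 4.33-fold and 4.92-fold lower. Receptors moved as well, with IL7R, the interleukin 7 receptor, at -2.10 ± 0.203 (adjusted p = 4.73e-07) and OSMR, the oncostatin M receptor, at -1.98 ± 0.125 (adjusted p = 1.72e-09). IL6R, the interleukin 6 receptor, was the 1 member that rose (0.89 ± 0.139, adjusted p = 0.000125). Of 23 measured cytokines, chemokines and receptors 10 fell, against 7.43% of all genes, and the median change was -0.70 (-0.37 after quantile normalization).

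The promoters of CXCL8 and IL11 are shown because both genes lay among the 15 deepest falls and each holds a match to the AP-1 motif TGANTCA, printed in capitals. The 250 bases before the RefSeq start (build GRCh38.p14) were read 5′ to 3′ on the gene's strand, for CXCL8 from chr4:73740319-73740568 on the plus strand and for IL11 from chr19:55370464-55370713 on the minus strand.
CXCL8: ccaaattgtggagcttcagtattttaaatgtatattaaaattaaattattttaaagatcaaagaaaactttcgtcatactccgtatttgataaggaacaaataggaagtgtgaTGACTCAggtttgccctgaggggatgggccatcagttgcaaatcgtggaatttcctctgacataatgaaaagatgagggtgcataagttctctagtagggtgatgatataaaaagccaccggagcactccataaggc
IL11: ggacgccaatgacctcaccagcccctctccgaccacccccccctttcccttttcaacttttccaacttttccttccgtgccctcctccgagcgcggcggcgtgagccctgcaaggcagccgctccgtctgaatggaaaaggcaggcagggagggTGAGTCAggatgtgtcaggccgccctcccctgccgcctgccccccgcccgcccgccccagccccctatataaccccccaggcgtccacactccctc
The match begins at position -137 from the start in CXCL8 and at position -96 in IL11. The motif was searched on both strands in the window from 250 bases before to 50 after the start, and 4 of the 18 cytokine-list genes with a RefSeq promoter held it (22.2%): CXCL8, IL11, OSMR and IL6R, of which the last rose. Among all measured genes with a promoter 8.09% held it, and among those that fell by at least 2-fold 11.7%. A match is a stretch of letters and was not tested as a binding site.

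Part of the growth factor list fell as well, the angiogenic ligand VEGFA among it. It read 7.24, 7.29 and 7.18 in DMSO and 5.38, 5.81 and 5.47 in DT (-1.69 ± 0.126 (SE, adjusted p = 1.81e-08)). GDF15, a stress-induced member of the TGF-beta superfamily, changed by -3.33 ± 0.147 (adjusted p = 1.52e-11). Its DT mean lay under the dim level, against which it was at least 9.29-fold lower. HBEGF, an EGF receptor ligand, changed by -1.78 ± 0.15 (adjusted p = 8.84e-08), and ANGPTL4, an inhibitor of lipoprotein lipase, by -1.66 ± 0.19 (adjusted p = 4.1e-06). VEGFB was the 1 member that rose (0.54 ± 0.139, adjusted p = 0.00732). Over the 31 measured growth factors 11 fell, against 7.43% of all genes, with a median change of -0.20 (-0.07 after quantile normalization).

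Receptor tyrosine kinases divided by member. EPHA2, an ephrin receptor, fell from 7.41, 7.50 and 7.13 to 5.07, 5.36 and 5.20 (-2.13 ± 0.127 (SE, adjusted p = 7.79e-10)), and EPHA4 changed by -2.02 ± 0.149 (adjusted p = 1.47e-08). The VEGF receptors FLT1 and KDR changed by -1.59 ± 0.144 (adjusted p = 2.26e-07) and -1.89 ± 0.146 (adjusted p = 2.66e-08), although KDR lay under the dim level in both groups. AXL, a receptor associated with drug tolerance in melanoma, was bright in both groups and fell from 10.06 ± 0.145 to 9.12 ± 0.131 (-0.94 ± 0.141 (SE, adjusted p = 8.06e-05)). The rises were KIT (1.16 ± 0.127, adjusted p = 2.27e-06), ERBB4 (0.89 ± 0.18, adjusted p = 0.00129) and ERBB3 (0.36 ± 0.127, adjusted p = 0.0456). KIT and ERBB4 stayed under the dim level, and the call of ERBB3, the neuregulin receptor, was lost as deposited when any array but DMSO replicate 2 was left out. EGFR did not pass the test (-0.23 ± 0.116, adjusted p = 0.156) and lay under the dim level in both groups. In all, 6 of 26 measured receptors fell and 3 rose, against 7.43% and 3.22% of all genes.

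Among the genes that take cells from G1 into S phase, CCND1 had the largest fall. CCND1, the D-type cyclin whose transcription follows ERK activity, read 9.12, 9.27 and 8.87 in DMSO and 5.52, 5.60 and 6.08 in DT, a change of -3.35 ± 0.143 (SE, adjusted p = 9.66e-12), or 10.2-fold lower. CDK6, its kinase partner, read 8.14, 8.27 and 7.88 and 6.24, 6.58 and 6.44 (-1.68 ± 0.147 (SE, adjusted p = 1.39e-07)). E2F3 and E2F7, E2F-family transcription factors, changed by -1.0 ± 0.155 (adjusted p = 0.000109) and -0.94 ± 0.136 (adjusted p = 5.56e-05). CCNG2, an atypical cyclin linked to cell cycle exit, rose by 0.62 (adjusted p = 0.000846) at levels under the dim level. On the deposited scale 18 of 31 G1 and S phase genes were called lower, against 24.1% of all genes. On all 3 scales 8 fell and 1 rose, against 7.43% and 3.22% of all genes. That count of 8 was 5 without DMSO replicate 1, without DMSO replicate 3 or without DT replicate 1.

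Mitosis genes had small changes. Of 24 measured, 20 were called lower as deposited, against 24.1% of all genes, and 3 on all 3 scales, near the 7.43% of all genes. No change was larger than 0.83 in size, that of MAD2L1, a spindle checkpoint protein (-0.83 ± 0.136, adjusted p = 0.000193). PLK1, a mitotic kinase, had the tightest arrays, 10.40, 10.41 and 10.38 in DMSO and 9.76, 9.80 and 9.81 in DT (-0.61 ± 0.119 (SE, adjusted p = 0.000978)). The median over mitosis genes was -0.48 as deposited and -0.12 after quantile normalization, and 1 gene was left without DMSO replicate 1, without DMSO replicate 3 or without DT replicate 1. Of 26 DNA repair and checkpoint genes 19 were called lower as deposited, against 24.1% of all genes, but the 3 that fell and the 1 that rose on all 3 scales were near the shares of all genes (7.43% and 3.22%). The falls were led by CHEK1, the checkpoint kinase (-0.97 ± 0.132, adjusted p = 2.94e-05), and 1 was left without DT replicate 3. The rise was that of NEIL1, a DNA glycosylase (0.68 ± 0.174, adjusted p = 0.00684), which stayed under the dim level.

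Ribosome biogenesis was the list with the largest share of falls. All 24 measured genes of ribosome assembly and RNA polymerase I were called lower as deposited and 20 fell on all 3 scales, against 24.1% and 7.43% of all genes, and the median change was -0.82 (-0.48 after quantile normalization). WDR43, a factor of the small-subunit processome, read 7.82, 8.15 and 7.96 in DMSO and 6.56, 6.87 and 6.57 in DT (-1.31 ± 0.145 (SE, adjusted p = 2.65e-06)). LYAR, a nucleolar cell growth regulator, read 6.49, 6.62 and 6.68 and 5.39, 5.49 and 5.26 (-1.22 ± 0.14 (SE, adjusted p = 4.32e-06)). NOC3L and URB2, factors of pre-ribosome maturation, changed by -1.17 ± 0.167 and -1.16 ± 0.14 (adjusted p = 4.89e-05 and 7.78e-06). DDX21, an RNA helicase of RNA polymerase I transcription, was the brightest of those named, at 9.90, 9.97 and 9.86 in DMSO and 8.83, 8.94 and 8.81 in DT (-1.05 ± 0.111 (SE, adjusted p = 1.63e-06)). The falls were of similar size across members, from -0.48 to -1.31, and 14 to 18 of the 24 genes fell when 1 array was left out.

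The promoter of LYAR is shown because the E-box CACGTG, the motif bound by MYC and related factors, was frequent on this list, and of the genes with an E-box in the 250 bases before the start LYAR fell most. The sequence is chr4:4290022-4290271, minus strand (GRCh38.p14), with the E-box in capitals at position -64.
LYAR: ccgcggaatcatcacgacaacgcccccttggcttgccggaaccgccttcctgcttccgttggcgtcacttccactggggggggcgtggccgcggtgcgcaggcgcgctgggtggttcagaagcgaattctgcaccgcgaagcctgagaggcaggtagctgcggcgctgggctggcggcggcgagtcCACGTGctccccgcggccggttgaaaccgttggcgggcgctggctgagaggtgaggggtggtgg
Within the window from 250 bases before to 50 after the start 10 of 17 ribosome biogenesis genes with a RefSeq promoter held the E-box (58.8%), against 11% of all measured genes. The share was 11.4% among genes that fell by at least 2-fold and 19.2% (10 of 52) among those that rose by at least 2-fold. The ETS motif CCGGAAG was held by 35.3% of the ribosome biogenesis genes and by 17.1% of all genes, and by 0 of 13 genes of the phosphatase and Sprouty list. The letters CACGTG read the same on both strands, and the 7 genes of these 17 without the motif were called lower as deposited too.

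Other biosynthetic lists fell on the deposited scale with smaller medians. Over all genes 24.1% were called lower as deposited and 7.43% fell on all 3 scales. Of 23 translation factors and tRNA synthetases 20 were called lower as deposited and 8 fell on all 3 scales, led by EIF4E, the cap-binding protein (-0.86 ± 0.13, adjusted p = 9.12e-05), and EIF4EBP1, its inhibitor (-0.83 ± 0.125, adjusted p = 8.9e-05). That count fell to between 3 and 6 when 1 array was left out, and was 3 without DMSO replicate 2 or without DT replicate 3. Among 23 purine and pyrimidine synthesis genes 8 fell, led by the uridine kinase UCK2 (-1.11 ± 0.137, adjusted p = 9.82e-06) and PPAT, the first enzyme of purine synthesis (-0.93 ± 0.123, adjusted p = 2.14e-05), and the count was 4 without DMSO replicate 1. Of 13 amino acid and ATF4-linked genes 3 fell, among them TRIB3, a pseudokinase induced by stress (-1.46 ± 0.155, adjusted p = 1.63e-06), and ASNS, asparagine synthetase (-0.95 ± 0.114, adjusted p = 6.82e-06). Among 10 glycolysis genes HK2, a hexokinase, fell (-1.0 ± 0.142, adjusted p = 4.53e-05) and TXNIP, an inhibitor of glucose uptake, rose (0.53 ± 0.151, adjusted p = 0.0131), although the call of TXNIP was lost without DMSO replicate 3 or without DT replicate 2. None of the 14 oxidative phosphorylation genes was called on all 3 scales by limma, and their median was -0.18 as deposited and 0.13 after quantile normalization.

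Most of the melanocyte genes measured rose. TYRP1, a melanosomal enzyme of melanin synthesis, read 6.35, 6.46 and 6.26 in DMSO and 8.93, 9.19 and 8.99 in DT, a change of 2.68 ± 0.138 (SE, adjusted p = 1.11e-10), or 6.4-fold higher. MITF, the transcription factor of the pigment lineage, read 6.28, 6.67 and 6.18 and 7.62, 7.95 and 7.62 (1.36 ± 0.15 (SE, adjusted p = 2.56e-06)). PMEL, the amyloid scaffold of the melanosome, read 8.81, 8.80 and 8.77 and 9.76, 9.93 and 9.94 (1.08 ± 0.116 (SE, adjusted p = 1.73e-06)). In each of these genes the lowest DT array lay above the highest DMSO array. OCA2, a melanosomal membrane protein, changed by 1.83 ± 0.162 (adjusted p = 1.64e-07), and MLANA, the melanoma antigen MART-1, by 1.44 ± 0.132 (adjusted p = 2.57e-07), both from DMSO levels under the dim level. IRF4, a transcription factor active in pigment cells, rose by 1.68 (adjusted p = 1.57e-07) and EDNRB, the endothelin receptor of melanocyte precursors, by 1.58 (adjusted p = 4.73e-08). SOX10 lay at 8.43, 8.46 and 8.45 in DMSO and 8.66, 8.85 and 8.75 in DT, without overlap, and was called after quantile normalization (0.66, adjusted p = 0.00220) but not as deposited (0.31 ± 0.121, adjusted p = 0.0669).

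Of 25 measured melanocyte and pigment genes 15 rose and 1 fell, against 3.22% and 7.43% of all genes, with a median change of 0.55 (0.79 after quantile normalization). The fall was that of LEF1, a WNT-pathway transcription factor, from 7.21 ± 0.0739 (SD, n = 3) to 5.66 ± 0.0711 (-1.56 ± 0.113 (SE, adjusted p = 1.25e-08)). The TYRP1 promoter is shown because it holds the M-box TCATGTG, an E-box variant bound by MITF, in capitals at position -145. The sequence is chr9:12693135-12693384, plus strand (GRCh38.p14).
TYRP1: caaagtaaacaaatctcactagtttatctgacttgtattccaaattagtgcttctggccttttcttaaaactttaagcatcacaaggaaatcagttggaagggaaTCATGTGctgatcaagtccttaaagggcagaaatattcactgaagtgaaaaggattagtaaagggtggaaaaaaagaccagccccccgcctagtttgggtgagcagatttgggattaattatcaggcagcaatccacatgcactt
On either strand of the window from 250 bases before to 50 after the start, 5 of 20 melanocyte-list genes with a promoter held an M-box (25%), against 2.83% of all measured genes. They were TYRP1, GPNMB, which rose by 0.94 (adjusted p = 4.78e-05), TYR (0.35 ± 0.133, adjusted p = 0.0557), GPR143 (-0.21 ± 0.133, adjusted p = 0.269) and TFAP2B (-0.19 ± 0.122, adjusted p = 0.294), so that genes with and without a rise held it.

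**Figure D3:**
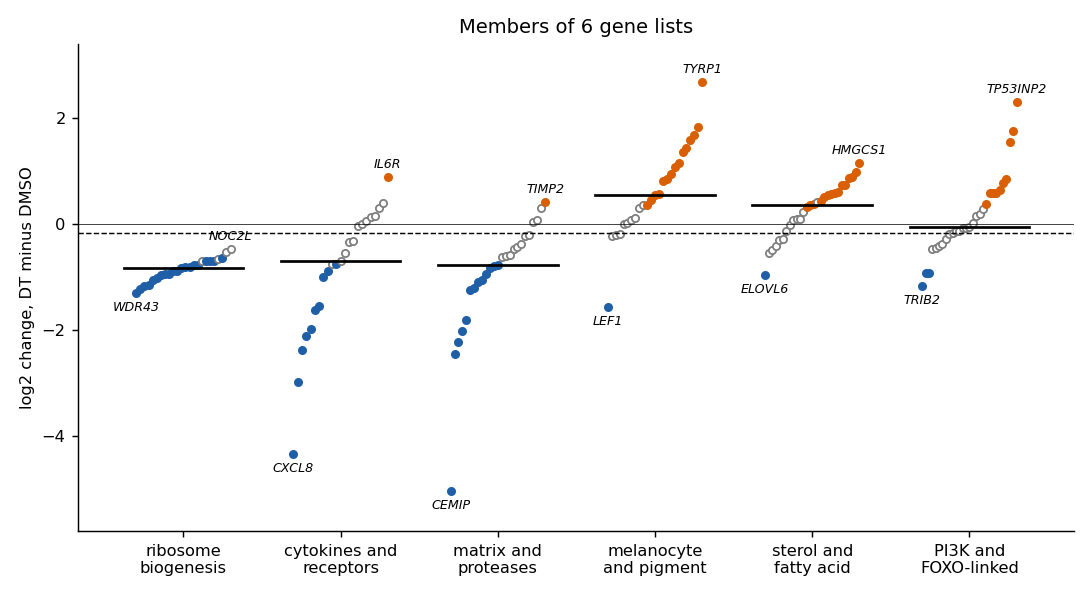
Change between DT and DMSO (log2, as deposited) of every measured member of 6 gene lists, each point 1 gene, sorted within its list, with the list's highest and lowest member named. Filled blue points fell and filled orange points rose on all 3 scales, bars are list medians and the dashed line is the median of all genes (-0.17). Ribosome biogenesis members cluster narrowly below the line, whereas cytokines and matrix genes spread from large falls to 1 rise each, and melanocyte and sterol genes lie mostly above it.

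Genes of dedifferentiated and neural crest melanoma states did not move as 1 block. Of 30 measured 12 fell and 3 rose, against 7.43% and 3.22% of all genes. NRP1, a semaphorin and VEGF coreceptor, read 9.04, 9.19 and 8.89 in DMSO and 6.87, 7.12 and 6.94 in DT (-2.06 ± 0.123 (SE, adjusted p = 8.47e-10)). TNC, the matrix protein tenascin C, changed by -1.80 ± 0.112 (adjusted p = 1.42e-09) and SOX9, a neural crest factor, by -1.13 ± 0.144 (adjusted p = 1.44e-05). The paired transcription factors of the epithelial-mesenchymal programme went opposite ways, with ZEB1 at -1.47 ± 0.141 (adjusted p = 4.44e-07) and ZEB2 at 1.08 ± 0.188 (adjusted p = 0.000362). SNAI2, a neural crest zinc finger factor, was already bright in DMSO at 9.34, 9.35 and 9.22 and reached 10.88, 10.99 and 10.94 in DT (1.63 ± 0.12 (SE, adjusted p = 1.47e-08)). FOXD3, a neural crest factor, rose from 3.85 ± 0.191 to 5.20 ± 0.276 (1.34 ± 0.143 (SE, adjusted p = 1.63e-06)), the DMSO level being under the dim level. NGFR, the neural crest nerve growth factor receptor, was called lower as deposited (-0.48 ± 0.128, adjusted p = 0.00909) and not after quantile normalization (-0.11, adjusted p = 0.63).

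Sterol and fatty acid synthesis rose in part. HMGCS1, which makes the precursor of mevalonate, read 5.99, 6.35 and 6.32 in DMSO and 7.25, 7.53 and 7.34 in DT (1.16 ± 0.132 (SE, adjusted p = 3.64e-06)). SCD, the stearoyl-CoA desaturase, was among the brightest genes measured and went from 10.13, 10.27 and 10.19 to 11.12, 11.27 and 11.16 (0.99 ± 0.119 (SE, adjusted p = 6.79e-06)). MVD and TM7SF2, enzymes of the sterol pathway, changed by 0.88 ± 0.146 and 0.86 ± 0.141 (adjusted p = 0.000210 and 0.000196), TM7SF2 under the dim level. Of 28 measured genes 15 rose and 1 fell, against 3.22% and 7.43% of all genes. The median was 0.36 (0.69 after quantile normalization), and 10 to 14 rose when 1 array was left out. The fall was that of ELOVL6, a fatty acid elongase (-0.96 ± 0.153, adjusted p = 0.000140). FASN, the fatty acid synthase, and SREBF1, a regulator of lipid synthesis, were called lower as deposited (-0.54 and -0.49) and not after quantile normalization (-0.17 and -0.23). Of the 6 motifs searched, the sterol regulatory letters TCACNCCAC were in 2 of 26 promoters of the list (7.69%) and in 1.44% of all, and the CArG box was in none of the 26 and in 1.73% of all.

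Genes linked to FOXO factors and PI3K signalling included 10 rises and 3 falls among 29 measured, against 3.22% and 7.43% of all genes. TP53INP2, an autophagy protein, read 6.12, 6.09 and 5.91 in DMSO and 8.35, 8.47 and 8.21 in DT (2.30 ± 0.121 (SE, adjusted p = 1.4e-10)). SESN3, a sestrin that restrains mTORC1, read 4.77, 5.13 and 5.05 and 6.55, 7.05 and 6.60 (1.75 ± 0.16 (SE, adjusted p = 2.36e-07)), from a DMSO level under the dim level. TP53INP1, a relative of TP53INP2, changed by 1.54 ± 0.153 (adjusted p = 6.73e-07) and FOXO3, a transcription factor held in check by AKT, by 0.85 ± 0.164 (adjusted p = 0.000845). The falls were those of TRIB2, a pseudokinase (-1.17 ± 0.122), IRS1, the insulin receptor adaptor (-0.93 ± 0.122), and KLF9, a hormone-responsive zinc finger factor (-0.92 ± 0.151), at adjusted p of 1.28e-06, 1.9e-05 and 0.000194. The list's median was -0.06 as deposited and 0.26 after quantile normalization. Of 32 lysosome and autophagy genes 6 rose and 1 fell, with CTSK, the protease cathepsin K, at 1.33 ± 0.14 (adjusted p = 1.51e-06), RRAGD, a GTPase of lysosomal mTORC1 control, at 0.63 ± 0.128 (adjusted p = 0.00124) and CTSL, cathepsin L, at -0.83 ± 0.115 (adjusted p = 3.46e-05). The count of rises was 3 without DMSO replicate 3.

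Several matrix and protease genes fell from high levels. CEMIP, a protein that breaks down hyaluronan, read 8.84, 8.95 and 8.56 in DMSO and 3.64, 3.80 and 3.78 in DT (-5.04 ± 0.124 (SE, adjusted p = 7.82e-15)). Its DT arrays lay under the dim level, and against that level it was at least 13.1-fold lower. THBS2, the matrix protein thrombospondin 2, was among the brightest genes at 11.61, 11.69 and 11.43 and stood at 9.56, 9.60 and 9.54 in DT (-2.01 ± 0.113 (SE, adjusted p = 3.66e-10)). MMP1, interstitial collagenase, read 10.80, 10.78 and 10.76 and 8.53, 8.58 and 8.56 (-2.22 ± 0.107 (SE, adjusted p = 5.48e-11)), the arrays of each group nearly coinciding. MMP13, another collagenase, changed by -2.46 ± 0.195 (adjusted p = 3.97e-08). TIMP2, an inhibitor of these proteases, rose by 0.41 (adjusted p = 0.00717). Of 25 measured genes 13 fell and 1 rose (2 rose without DMSO replicate 2), against 7.43% and 3.22% of all genes. The median change was -0.77 (-0.48 after quantile normalization).

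Adhesion and guidance genes moved in both directions. The shares over all genes were 7.43% fallen and 3.22% risen. ICAM1, the leukocyte adhesion molecule, fell from 9.21, 9.18 and 9.0 to 7.06, 6.96 and 6.77 (-2.19 ± 0.119 (SE, adjusted p = 2.26e-10)), and CEACAM1, MCAM and NRCAM, of the same immunoglobulin superfamily, changed by -1.48, -1.36 and -1.35 (adjusted p = 3.7e-07, 1.34e-07 and 2.17e-07). CD24, a glycosylphosphatidylinositol-anchored surface protein, rose from 3.91, 3.70 and 4.20 to 6.70, 7.0 and 6.62 (2.84 ± 0.149 (SE, adjusted p = 1.35e-10)). Over 17 adhesion genes 7 fell and 3 rose. Among 24 semaphorin, ephrin and other guidance genes 6 fell and 4 rose, with EFNB2, an ephrin ligand, at -1.32 ± 0.114 (adjusted p = 1.21e-07), PLXNC1, a semaphorin receptor, at 1.74 ± 0.15 (adjusted p = 1.18e-07) and EFNA1, another ephrin, at 0.89 ± 0.122 (adjusted p = 3.17e-05). CD24, PLXNC1 and EFNA1 rose from DMSO levels under the dim level, against which CD24 was at least 2.70-fold higher.

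Developmental signalling genes included 12 falls and 2 rises among 34 measured genes of the WNT, TGF-beta, BMP and NOTCH pathways. Over all genes falls also outnumbered rises (7.43% against 3.22%). HEY1, a NOTCH target, read 6.59, 6.80 and 6.83 in DMSO and 4.37, 4.67 and 4.33 in DT (-2.28 ± 0.151 (SE, adjusted p = 3.16e-09)), its DT arrays being under the dim level. The WNT antagonists SFRP1 and DKK1 changed by -1.99 ± 0.141 and -1.87 ± 0.145 (adjusted p = 8.4e-09 and 2.94e-08), and JAG1, a NOTCH ligand, by -1.89 ± 0.119 (adjusted p = 1.74e-09). SMAD6, an inhibitor of BMP signalling, rose by 1.31 (adjusted p = 2.56e-07) under the dim level. The other rise, that of NOTCH1 (0.41 ± 0.145, adjusted p = 0.0423), was lost as deposited when any array but DMSO replicate 2 was left out.

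Cell death regulators moved in both directions. BCL2L11, which encodes the pro-apoptotic protein BIM, read 5.15, 5.78 and 5.42 in DMSO and 6.36, 6.63 and 6.22 in DT (0.95 ± 0.163 (SE, adjusted p = 0.000308)), and BMF, of the same BH3-only class, changed by 1.05 ± 0.127 (adjusted p = 7.72e-06). PMAIP1, which encodes the BH3-only protein NOXA, went the other way, from 7.10, 7.24 and 7.15 to 4.55, 4.35 and 4.51 (-2.69 ± 0.115 (SE, adjusted p = 9.66e-12)). Its DT arrays lay under the dim level, so the size of this fall is uncertain. MCL1, the anti-apoptotic partner of NOXA, read 8.37, 8.59 and 8.20 and 6.81, 6.97 and 6.86 (-1.51 ± 0.123 (SE, adjusted p = 5.68e-08)), and BCL2 changed by -1.28 ± 0.127 (adjusted p = 6.7e-07). BIRC2, an inhibitor of apoptosis protein, changed by -1.09 ± 0.129 (adjusted p = 5.75e-06). These were the 2 rises and 4 falls among the 22 measured members, against 3.22% and 7.43% of all genes.

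Interferon and antigen presentation genes gave 4 falls and 3 rises among 25, against 7.43% and 3.22% of all genes. RIGI, a sensor of viral RNA, fell by 1.14 (adjusted p = 3.89e-06), IRF1 and IRF2 changed by -0.81 and -0.76 (adjusted p = 0.000459 and 0.000179), and CD274, the immune checkpoint ligand PD-L1, by -1.57 ± 0.162 (adjusted p = 1.07e-06). CD274, IRF1, IFIT1 and IFI44L lay under the dim level in both groups. The rises, IFIT1, IFI44L and IRF9, were at most 0.47, and at most 1 of them was left when any 1 array was left out.

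Smaller lists held single genes with large changes. Their counts stand beside shares of 7.43% fallen and 3.22% risen over all genes. STC1, a secreted glycoprotein hormone that responds to hypoxia, read 9.09, 9.17 and 8.77 in DMSO and 5.02, 5.43 and 5.06 in DT (-3.84 ± 0.144 (SE, adjusted p = 2.07e-12)). Over 15 hypoxia-responsive genes 6 fell and 3 rose, the latter including EPAS1, which encodes HIF-2 alpha (0.71 ± 0.123, adjusted p = 0.000341). In the circadian list 2 of 12 fell, NPAS2 (-1.29 ± 0.141, adjusted p = 2.17e-06) and PER2 (-1.0 ± 0.154, adjusted p = 0.000109), and 2 rose, PER3 (0.95 ± 0.112, adjusted p = 5.33e-06) and DBP (0.94 ± 0.149, adjusted p = 0.000147). Of 17 cAMP and phosphodiesterase genes 7 fell and none rose, led by CREM, a cAMP-responsive factor (-1.47 ± 0.16, adjusted p = 2.25e-06), and PDE8A, a phosphodiesterase (-1.21 ± 0.125, adjusted p = 1.16e-06). Of 18 actin cytoskeleton and SRF-linked genes 4 fell, among them KRT18, a keratin (-1.07 ± 0.143, adjusted p = 2.36e-05), and ZYX, the focal adhesion protein zyxin (-0.89 ± 0.12, adjusted p = 2.59e-05), and 2 were left without DT replicate 2.

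**Figure D4:**
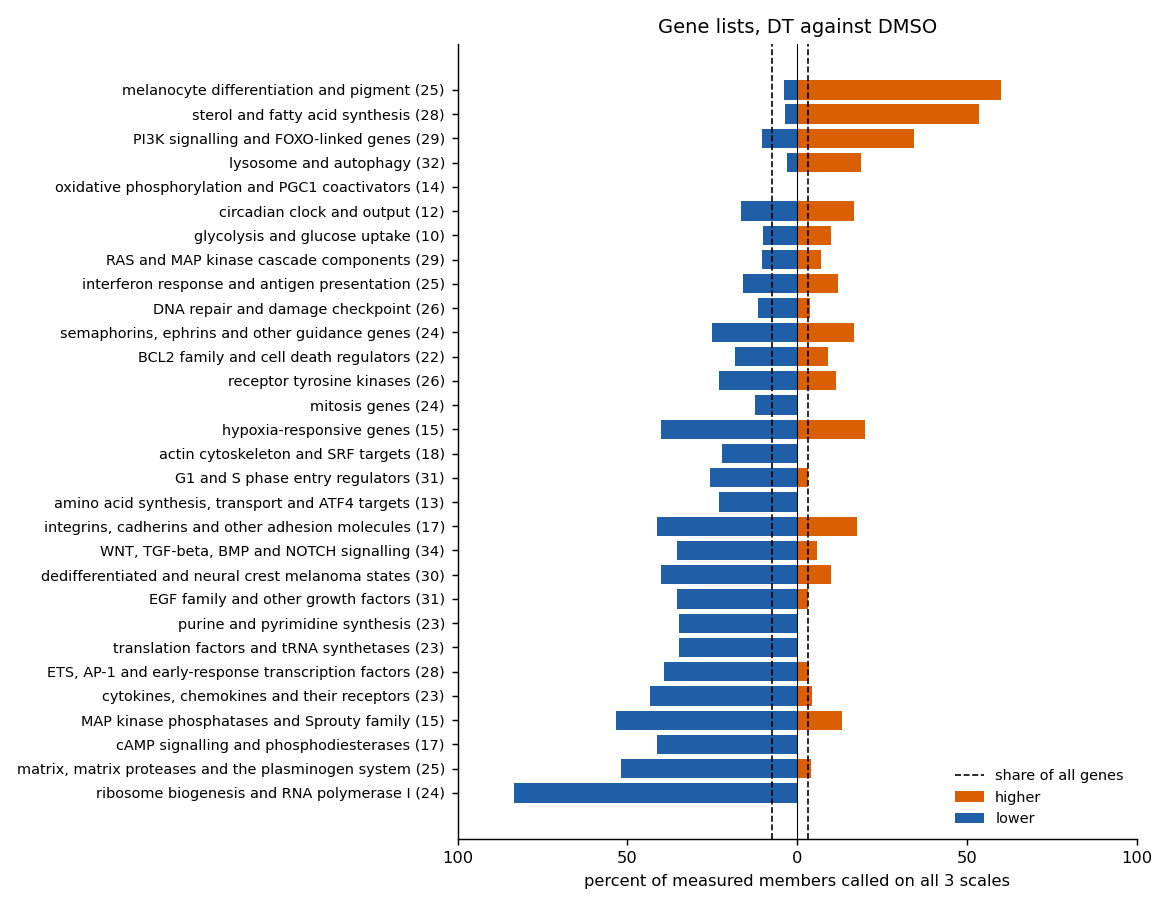
Percent of the measured members of each gene list that fell (blue, to the left) or rose (orange, to the right) on all 3 scales, with the number of measured members in parentheses; dashed lines give the shares over all genes (7.43% fallen, 3.22% risen). Ribosome biogenesis extends furthest to the left with 20 of 24 members, and melanocyte genes furthest to the right with 15 of 25.

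Several of the largest rises belonged to none of these lists. ASPA, the enzyme that splits N-acetylaspartate, went from 4.48, 4.40 and 4.49 in DMSO to 7.50, 7.81 and 7.30 in DT (3.08 ± 0.19 (SE, adjusted p = 1.42e-09)). STK32A, a serine/threonine kinase, read 3.65, 3.78 and 3.55 and 6.31, 6.63 and 6.34 (2.77 ± 0.13 (SE, adjusted p = 3.7e-11)). Both started under the dim level, against which ASPA was at least 4.57-fold higher, so the sizes of these rises are uncertain. GALNT3, which starts O-linked glycosylation, BEST1, a chloride channel, and HPGD, which degrades prostaglandins, changed by 2.25 ± 0.194, 2.10 ± 0.136 and 2.05 ± 0.153 (adjusted p = 1.18e-07, 2.47e-09 and 1.82e-08), also from under it. OLFML2A, an extracellular matrix protein, was well above the dim level in both groups, at 7.27, 6.86 and 6.81 and 8.92, 8.97 and 8.79 (1.91 ± 0.138 (SE, adjusted p = 1.13e-08)). PDZRN3, a ubiquitin ligase, changed by 1.82 ± 0.14, RAP1GAP, which turns off the GTPase RAP1, by 1.71 ± 0.132, and the long noncoding RNA LINC01531 by 1.69 ± 0.207 (adjusted p = 2.49e-08, 2.58e-08 and 8.95e-06). RAP1GAP and LINC01531 rose from DMSO means under the dim level, against which they were at least 1.33-fold and 1.17-fold higher. Among the deep falls outside the lists were SHISA2, a membrane protein that retains receptors in the endoplasmic reticulum (-3.51 ± 0.139, adjusted p = 3.47e-12), and SH2D2A, an adaptor protein of T cells (-3.23 ± 0.159, adjusted p = 7.24e-11). Both DT means lay under the dim level, against which the genes were at least 5.36-fold and 4.32-fold lower.

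The table also named 1018 microRNA loci, of which 98 had a level above the dim level in at least 1 group. The probes read RNA from the locus, such as the precursor or its host transcript, not the mature microRNA. On all 3 scales 17 loci fell and 9 rose, both below the shares of all genes (7.43% and 3.22%), and the 17 became 9 without DT replicate 3 and 11 without DMSO replicate 2. Loci of the miR-221/222 cluster had the deepest falls, and their mature 3p strands are shown because they share 1 seed (bases 2 to 8, in capitals), GCUACAU, and so can pair with the same sites. The sequences are from RefSeq (GRCh38.p14), miR-222-3p at chrX:45747036-45747056 and miR-221-3p at chrX:45746180-45746202, both on the minus strand, and below them the 5p strands of 2 further loci are given.
miR-222-3p: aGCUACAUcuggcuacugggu
miR-221-3p: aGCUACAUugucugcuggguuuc
miR-21-5p: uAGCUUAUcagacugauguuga
miR-211-5p: uUCCCUUUgucauccuucgccu
MIR222 read 5.89, 5.57 and 5.70 in DMSO and 3.77, 3.66 and 2.94 in DT (-2.26 ± 0.185 (SE, adjusted p = 6.15e-08)), and MIR221 read 5.22, 5.30 and 5.24 and 3.45, 3.56 and 3.17 (-1.86 ± 0.136 (SE, adjusted p = 1.25e-08)), the latter under the dim level in both groups and the former in DT. Both lie within the host gene MIR222HG on chromosome X. MIR21, on chromosome 17 within VMP1 (chr17:59841273-59841294, plus strand), read 6.36, 6.72 and 6.48 and 5.11, 5.36 and 5.18 (-1.31 ± 0.149 (SE, adjusted p = 3.89e-06)). MIR211, on chromosome 15 within the melanocyte gene TRPM1 (chr15:31065095-31065116, minus strand), read 3.89, 3.97 and 3.33 and 4.09, 4.46 and 4.42, a rise of 0.59 (SE 0.167, adjusted p = 0.0125) under the dim level that was lost without DMSO replicate 3 or without DT replicate 3. The largest rise among the loci was that of MIR4534, within POLR2F on chromosome 22 (1.37 ± 0.188, adjusted p = 3.4e-05). MIR21 and MIR211 were named after their values were seen.

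The same inhibitor pair was also given on top of entinostat, in arrays that above served only for the estimate of the spread, the quantile normalization and the choice of probe set. In DTE against E limma called 303 genes higher (2.08%) and 3271 lower (22.4%). Of the 388 genes that fell by at least 2-fold under DT 352 were also lower there, and of the 75 that rose by at least 2-fold 58 were also higher. DUSP6 changed by -5.36 ± 0.19 (SE), SPRY4 by -3.77 ± 0.169, ETV4 by -4.05 ± 0.137 and MITF by 1.32 ± 0.15, and for none of these did the difference between the effects pass the test (adjusted p = 0.139, 0.401, 0.997 and 0.976). Over all genes the difference was called for 151 (1.04%). Among the 2-fold falls it was called with a smaller fall under entinostat for 47 genes and with a larger one for 1, and among the 2-fold rises with a smaller rise for 22 and a larger one for 0. The genes were chosen for a large change in DT against DMSO, which enters both the choice and the difference, so these counts describe the chosen genes and support nothing further.

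**Figure D5:**
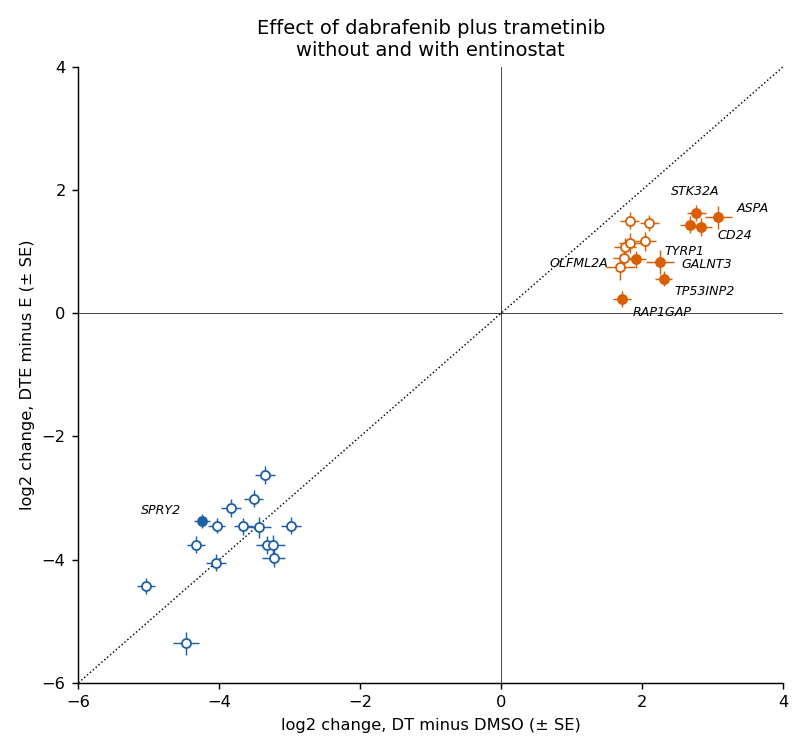
Effect of dabrafenib plus trametinib (log2 change ± SE) without entinostat (DT minus DMSO, horizontal axis) and with it (DTE minus E, vertical axis) for the 15 largest falls (blue) and 15 largest rises (orange); the dotted line marks equal effects. Filled, named points are genes whose difference passed the test; 8 of the rises and 1 of the falls did, and their effects were smaller with entinostat.

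TYRP1 rose by 2.68 without entinostat and by 1.43 with it, a difference of -1.24 (adjusted p = 0.00309). PMEL gave 1.08 and 0.34 (difference -0.74, adjusted p = 0.0345) and EDNRB 1.58 and 0.17 (difference -1.41, adjusted p = 0.000614). Melanocyte genes thus included members with a smaller rise and, as MITF and KIT (difference 0.02, adjusted p = 0.985), members without a called difference. Outside that list TP53INP2 rose by 2.30 and 0.56 (difference -1.74, adjusted p = 0.000112). PMAIP1 fell less with entinostat (-2.69 and -1.58, difference 1.11, adjusted p = 0.00183), as did SPRY2 (-4.24 and -3.38, difference 0.87, adjusted p = 0.0108).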

How the data were processed

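Per the submitters' processing notes the authors used the Transcriptome Analysis Console and RMA, which corrects background, normalizes and summarizes probes (versions are not given in the sources used here). They deposited 1 linear intensity per probe set and array (1.88 to 8728), and the number of arrays limits the precision. Per the labels' protocols an ERCC spike-in was added, and no probe set used here carried its name. Of 29396 probe sets 14748 had 1 gene symbol, 0 several and 14648 none. For the 156 genes with several probe sets the brightest on average over all 12 arrays stood for the gene, and 14580 genes were tested.

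Log2 intensities were fitted with limma 3.58.1 (R 4.3.3: lmFit over 4 group means, 8 residual degrees of freedom, eBayes), with Benjamini-Hochberg adjustment over all genes. The fit was tested on simulated data. Named genes were the 15 largest rises and falls among called genes with groups that did not overlap and a higher mean above the dim level, up to 4 called members each way per gene list, and fixed key genes. OSMR, TYR, GPR143, GPNMB, TFAP2B, LUM, MIR21 and MIR211 were added after their values were seen. Members and lists were chosen with earlier results of these data known, and lists are described by counts with no set test. Chosen after the values were seen were the call on all 3 scales, the microRNA list, the lists searched for motifs, the promoters shown and the families behind the dim level (the olfactory receptors planned for it had too few named genes). RefSeq (GRCh38.p14) gave a promoter for 10560 genes. In all 13 alternative settings were run, among them each of the 6 arrays left out in turn. Deviations from the group mean correlated at 0.022, 0.172 and 0.113 between DMSO and DT arrays of the same title number. Arrays of different numbers gave -0.147 to 0.041 (as deposited). After quantile normalization the same numbers gave -0.0096, 0.107 and 0.078, and different numbers -0.105 to 0.030. The main fit took no pairing, and whether the number pairs arrays was not tested.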

Additional observations from a re-analysis of the deposited data

Results flagged for a closer look

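The effect of dabrafenib plus trametinib differed between cells without and with entinostat for 25 of the 201 named genes (limma, adjusted p under 0.05 for the difference of the effects, as deposited; also after quantile normalization for each of the 25). Each difference is (DTE minus E) minus (DT minus DMSO) on the log2 scale, and the arrays are 3 per group. Over all genes the difference was called for 151 (1.04%). Most named genes were chosen by their change in DT against DMSO, which also enters the difference. That choice favours smaller effects with entinostat, so the count and the shared direction describe the chosen genes only. Rises that were smaller, or turned into falls, with entinostat had negative differences. They were -1.52 for ASPA, -1.44 for CD24, -1.23 for CTSK, -0.99 for DBP, -1.41 for EDNRB, -1.13 for EPAS1, -1.43 for GALNT3, -1.04 for OLFML2A, -1.12 for PER3, -0.74 for PMEL, -1.49 for RAP1GAP, -1.14 for STK32A, -1.74 for TP53INP2, -1.24 for TYRP1 and -0.88 for VEGFB. The microRNA locus MIR4776-1 gave -1.38 at levels under the dim level, and its other probe set changed by 0.04 between DT and DMSO against 0.91 for the one used.

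Falls that were smaller with entinostat had positive differences: 0.76 for ASNS, 0.95 for CDK6, 1.54 for DKK1, 1.25 for EPHA4, 1.13 for HEY1, 1.11 for JAG1, 1.11 for PMAIP1, 0.85 for SFRP1 and 0.87 for SPRY2. The adjusted p of the 25 ranged from 0.000112 (TP53INP2) to 0.0478 (SFRP1).

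The probe sets without a gene symbol, which no comparison above used, also changed. Of these 14648, limma called 2275 in DT against DMSO as deposited, 301 higher and 1974 lower, and 63 and 250 of them by at least 2-fold. Of the 14580 genes with a symbol, more were called on that scale, 471 (3.23%) higher and 3514 (24.1%) lower. The unnamed probe sets were not fitted after quantile normalization or median centring, on which the counts of named genes depended.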

How the results depend on the processing

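The deposited scale set the counts of called genes more than any other choice. Higher genes numbered 471 on it, 1247 with quantile normalization and 1178 with median centring, and lower genes 3514, 1146 and 1743. At 2-fold or more the higher genes were 75, 150 and 130 and the lower ones 390, 187 and 238. Leaving out 1 array gave 2267 (without DT replicate 1) to 3923 (without DT replicate 2) lower genes, and 2278 without DMSO replicate 2. Genes called on all 3 scales numbered 361 to 471 higher and 835 to 890 lower with 1 array left out. The difference of the effect with entinostat was called for 151 genes as deposited, 314 after quantile normalization, 267 after median centring, 230 with an intensity trend in the variance model, 290 after a filter on dim genes and 95 to 124 with 1 array left out (95 without DT replicate 1 or 3, 97 without DMSO replicate 3). DTE against E gave 1870 and 1985 calls after quantile normalization and median centring, against 3574 as deposited. The causes were not tested. With the replicate number as a block, 492 genes were higher and 3736 lower, and no call of a named gene changed. Of the 193 named genes called as deposited, 162 kept direction and call in each of the 13 settings that could be run for them and 31 lost the call in at least 1. ARAF alone reversed, to 0.018 after quantile normalization. Levels under the dim level limit the sizes of changes measured from them.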
